A study of Mus musculus with 6 samples.

Results

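Interferon-stimulated genes were examined in the aorta of 3 mice lacking both Apoe and Adora1 (apoe-/- adora1-/-, called DKO) and 3 mice lacking Apoe alone (apoe-/-, called ApoE-KO). All mice were on a C57BL/6 background and 20 weeks old, and the missing Apoe is shared by both groups. By their labels the groups differ in Adora1, the adenosine A1 receptor gene. Whether they also differ elsewhere in the genome was not tested. Each sample was measured on 1 array, for 3 mice per genotype by the series text, and the arrays carry replicate numbers 1 to 3 in each genotype. The genes were a list of 33 names, chosen by name but with earlier results of these data known. Of these, 30 had a probe set that the platform annotation assigns to that gene alone, out of 19752 genes with such a probe set. Isg15 and Gbp2 were left out because their probe sets name more than 1 gene, and Ifi44 because none names it, and where a gene had several probe sets the one with the highest mean over the 6 arrays was kept. The overall series text describes the comparison group as Adora1 knockout, whereas the title, source and genotype of each array name Apoe, and the array labels were followed.

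Interferons are secreted when cells sense foreign or misplaced nucleic acid. Type I interferon acts through a receptor whose kinases activate STAT2, which together with IRF9 binds the interferon-stimulated response element (ISRE) of its target genes, while interferon gamma acts at gamma-activated sites (GAS) and induces IRF1. The induced proteins sense viral RNA, block its translation, cut it, tag proteins with ISG15 or damp the signal, and in atherosclerotic arteries macrophages and T cells are known sources and targets of this response.

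Values are log2 intensities, and differences are DKO minus ApoE-KO, so 1 unit is a doubling. No probe set is assigned to Adora1 alone, so its deletion was not checked here. Apoe read 9.39, 9.63 and 9.72 in DKO, against 9.47, 9.64 and 10.04 in ApoE-KO. Both genotypes lack Apoe, so without a wild-type array these values do not check its deletion. The 7 smooth muscle markers averaged between 12.73 and 12.85 in DKO, against 12.61 and 12.80 in ApoE-KO, and the 7 endothelial markers between 10.01 and 10.53 in DKO, against 9.97 and 10.60 in ApoE-KO. The arrays of replicate number 3 stood apart in lung epithelium markers, whose 5 genes averaged 10.39 in DKO replicate 3 and 11.04 in ApoE-KO replicate 3, against 6.73 to 6.86 in the other 4 arrays. In RNA from whole tissue, fewer cells of a type and less RNA per cell cannot be told apart.

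None of the 30 interferon-stimulated genes passed the test between DKO and ApoE-KO (limma without pairing, smallest adjusted p = 0.862, threshold 0.05), and 0 of them had an unadjusted p under 0.05. Over all 25254 probe sets 0 passed (0%), and 5.62% had an unadjusted p under 0.05. With the replicate number as a block, again 0 of the 30 passed (smallest adjusted p = 0.105), against 44 of all probe sets (0.174%), and 3 had an unadjusted p under 0.05, Rsad2, Oas1a and Ddx58, each higher in DKO, where the share over all probe sets was 16.2%. Of the 30 genes 18 were higher and 12 lower in DKO, with a median difference of 0.05, while 50.7% of all probe sets were lower and their median difference was -0.0024. The median of the 30 genes moved to 0.14 without DKO replicate 1, with 2 genes lower, and to -0.06 without DKO replicate 2, with 18 genes lower, and without ApoE-KO replicate 2 it was 0.08 with 5 genes lower.

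The intervals, here and below from the fit without pairing, show how large a difference that fit leaves possible. For 22 of the 30 genes the 95% interval lay within 0.5 log2 units of 0 on either side, and for 29 it lay within 1 unit, the exception being Rsad2. The genes' half-width of the interval had a median of 0.28, against 0.24 over all probe sets. With the replicate block the interval ran from 0.32 to 0.95 for Rsad2, from 0.02 to 0.42 for Oas1a and from 0.0071 to 0.28 for Ddx58. These unadjusted intervals left out 0 in no other of the 30 genes, and 16.2% of all probe sets had an unadjusted p under 0.05 with the block. None of the 30 passed after adjustment. Groups did not overlap in 1 gene, Oas1a, which was higher in DKO, where 5.55% of all probe sets were higher in DKO without overlap and 6.47% lower without overlap.

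**Figure D1:**
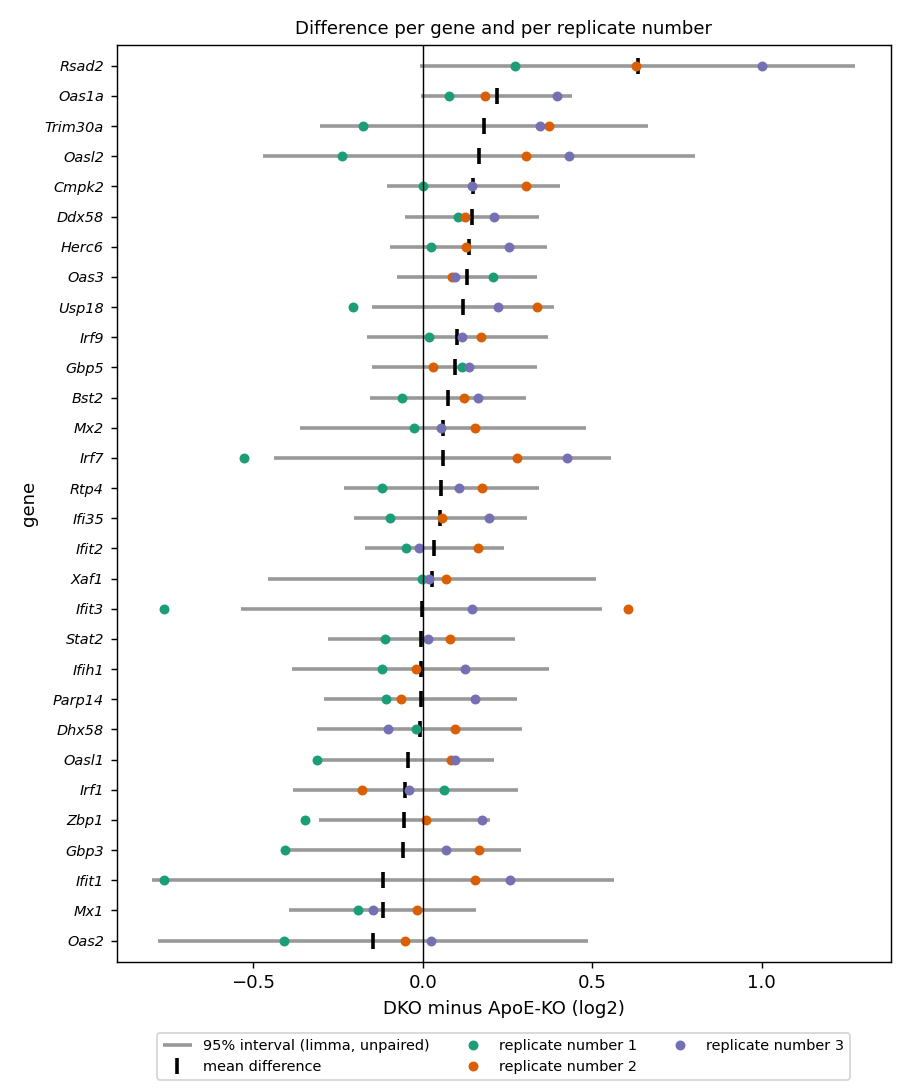
Differences of the 30 genes (rows, ordered by mean) on the horizontal axis as DKO minus ApoE-KO in log2 units. Black ticks are means over 3 arrays per genotype, grey bars the unpaired 95% intervals of limma, and coloured points the difference at each replicate number. Every grey bar crosses 0, Rsad2 stands at 0.63, and the points of replicate number 1 lie left of 0 in 22 genes.

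The ISRE and the GAS are the sequences through which interferons are known to switch such genes on, and promoter stretches are shown so that these cores can be compared between genes. RefSeq promoter windows of build GRCm38.p6, from 250 bases before to 50 bases after the start of the transcript, matched 25 of the 33 names with 30 windows. The unmatched names were Dhx58, Mx1, Mx2, Oas2, Parp14, Rtp4, Usp18 and Zbp1. The core of the ISRE was searched as GAAA, any 2 bases and GAAA, and on the other strand as TTTC, any 2 bases and TTTC, and 15 of the 30 windows (50%) held it, against 3.44% of all 32851 windows. The following stretches show, for the 12 measured genes with one, the match nearest to the transcript start (for Trim30a, with several windows, the match before its start), 5′ to 3′ on the gene's strand, with bases of the core in capitals.
Stat2 (chr10:128270266-128270295, plus strand): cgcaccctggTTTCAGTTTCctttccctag
Ddx58 (chr4:40239804-40239833, minus strand): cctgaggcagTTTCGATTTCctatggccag
Ifih1 (chr2:62646206-62646233, minus strand): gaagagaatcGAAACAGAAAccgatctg
Ifit1 (chr19:34640794-34640823, plus strand): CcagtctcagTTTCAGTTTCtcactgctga
Ifit3 (chr19:34583397-34583426, plus strand): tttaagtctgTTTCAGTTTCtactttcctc
Oas1a (chr5:120907520-120907549, minus strand): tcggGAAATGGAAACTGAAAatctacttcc
Oas3 (chr5:120777715-120777744, minus strand): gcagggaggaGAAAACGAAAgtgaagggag
Gbp3 (chr3:142559995-142560024, plus strand): acagTTTCAGTTTCTATTTCccagatccct
Gbp5 (chr3:142496759-142496788, plus strand): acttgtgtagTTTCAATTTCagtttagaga
Rsad2 (chr12:26456553-26456582, minus strand): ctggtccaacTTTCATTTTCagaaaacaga
Bst2 (chr8:71537577-71537606, minus strand): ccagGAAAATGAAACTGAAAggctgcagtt
Trim30a (chr7:104465210-104465239, minus strand): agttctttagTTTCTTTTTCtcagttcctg
In Gbp3, Oas1a and Bst2 a pair of cores overlapped and the capitals cover both, the capital at the left end of the Ifit1 stretch belongs to its second core, and in Ddx58 and Ifih1 the core lay after the transcript start. The core of the GAS was searched as TTCNNNGAA, which reads the same on both strands, and 6 of the 30 windows (20.0%) held it, against 8.3% of all windows. Irf1, which interferon gamma induces, had its core 90 bases before the transcript start.
Irf1 (chr11:53769914-53769942, plus strand): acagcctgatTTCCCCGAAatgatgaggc
The 2 motifs overlapped in 1 of the genes' windows, that of Bst2. The 12 measured genes with an ISRE core had a median difference of 0.08 (7 higher, 5 lower in DKO), and the 10 measured genes with a window and no core one of 0.05 (8 higher, 2 lower). A match is a description of letters and does not show binding.

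Among the transcription factors, Irf9 and Irf7 were slightly higher and Irf1 and Stat2 slightly lower in DKO, and none of the 4 passed. Irf9, the DNA-binding partner of STAT2, read 8.97, 9.32 and 9.10 in DKO, against 8.95, 9.15 and 8.99 in ApoE-KO, which put every DKO array above its same-numbered partner with overlapping groups. Its difference was 0.10 (95% interval -0.17 to 0.37, adjusted p = 0.933 with limma). Stat2, a carrier of the type I signal, read 8.83, 9.21 and 9.04 in DKO, against 8.94, 9.13 and 9.02 in ApoE-KO, and the means were almost equal (difference -0.0048, interval -0.28 to 0.27).

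Irf1, which interferon gamma induces and which switches on antigen presentation genes, read 9.08, 9.33 and 9.21 in DKO, against 9.01, 9.51 and 9.25 in ApoE-KO, with the highest value in ApoE-KO replicate 2. The difference was -0.05 (interval -0.38 to 0.28), and a second Irf1 probe set gave -0.02. Irf7, the factor that amplifies type I interferon production, read 8.32, 8.73 and 8.45 in DKO, against 8.84, 8.45 and 8.02 in ApoE-KO. The highest and the lowest Irf7 level of the 6 were both in ApoE-KO, and the replicate numbers disagreed, at -0.53, 0.28 and 0.42. Its fitted difference was 0.06 (interval -0.44 to 0.55, adjusted p = 0.980 with limma).

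Of the nucleic acid sensors, Ddx58, which encodes the RNA helicase RIG-I, was the steadiest across pairs. It read 9.74, 9.87 and 9.82 in DKO, against 9.64, 9.75 and 9.61 in ApoE-KO. The groups touched only where DKO replicate 1 lay just under ApoE-KO replicate 2. The difference was 0.15 (interval -0.05 to 0.34), with 0.10, 0.12 and 0.21 by replicate number, and it did not pass without or with the block (limma, adjusted p = 0.862 and 0.287). Ifih1, which encodes the long-RNA sensor MDA5, Dhx58, which encodes the regulatory helicase LGP2, and Zbp1, a sensor of left-handed nucleic acid that can start necroptosis, had differences of -0.0061, -0.0093 and -0.05. Zbp1 was 0.35 lower in DKO than in ApoE-KO at replicate number 1 and 0.18 higher at number 3.

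The IFIT proteins bind viral RNA and hold back its translation, and at Ifit1 the mice of 1 genotype lay far apart. Ifit1 read 7.99, 9.10 and 8.55 in DKO, against 8.75, 8.95 and 8.29 in ApoE-KO. Its range over the 6 arrays was 1.11 log2 units, and the lowest and the highest array were both DKO. The replicate numbers gave -0.76, 0.15 and 0.26, and the fitted difference was -0.12 (interval -0.80 to 0.57, adjusted p = 0.966 with limma). The stretch of 250 bases before its start is shown because Ifit1 had the second widest range and holds a pair of separate ISRE cores, in capitals.
Ifit1 (chr19:34640639-34640888, plus strand): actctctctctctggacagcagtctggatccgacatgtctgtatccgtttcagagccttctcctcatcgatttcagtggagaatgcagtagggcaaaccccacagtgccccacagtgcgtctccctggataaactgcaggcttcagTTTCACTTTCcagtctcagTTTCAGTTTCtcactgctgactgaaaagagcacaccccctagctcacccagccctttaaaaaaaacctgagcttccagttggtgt
Ifit3, named here after its values were seen, had -0.76, 0.61 and 0.15 by replicate number and a mean difference of -0.0036. Ifit2, which lies next to Ifit3 on chromosome 19 in RefSeq gene order, had the narrowest range of the 30, at 0.17, and a difference of 0.03. IFIT genes have close copies in the mouse genome, and their probe sets may share signal.

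Oligoadenylate synthetases turn double-stranded RNA into a signal that activates RNase L. Oas1a had the second smallest unadjusted p of the 30 and read 7.56, 7.71 and 7.88 in DKO, against 7.48, 7.52 and 7.49 in ApoE-KO. All DKO arrays lay above all ApoE-KO arrays, and DKO replicate 1 was the closest to them. A further probe set names Oas1a together with other genes and was not used, and probe sets of this family may share signal. The difference was 0.22 (interval -0.0053 to 0.44), or 1.16-fold, and did not pass without or with the block (limma, adjusted p = 0.862 and 0.272). It was 0.13 without DKO replicate 3. The 250 bases before the Oas1a start are shown because it was the gene whose groups parted, with overlapping ISRE cores in capitals.
Oas1a (chr5:120907526-120907775, minus strand): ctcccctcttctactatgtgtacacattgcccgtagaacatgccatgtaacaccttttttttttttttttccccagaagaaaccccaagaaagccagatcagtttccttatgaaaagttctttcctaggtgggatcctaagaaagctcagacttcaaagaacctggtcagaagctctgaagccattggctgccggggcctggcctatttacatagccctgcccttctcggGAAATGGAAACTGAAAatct
Oas3 read 7.26, 7.28 and 7.09 in DKO, against 7.05, 7.20 and 6.997 in ApoE-KO, higher in DKO in each pair with overlapping groups. Its difference was 0.13 (interval -0.08 to 0.34).

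Oas2, which lies beside Oas3 on chromosome 5, had the lowest difference of the 30. It read 7.81, 8.80 and 8.53 in DKO, against 8.22, 8.85 and 8.51 in ApoE-KO, lowest in DKO replicate 1 and highest in ApoE-KO replicate 2, and the groups overlapped. The difference was -0.15 (interval -0.78 to 0.49), and it turned to 0.14 without DKO replicate 1 and to 0.016 without ApoE-KO replicate 2. Oasl2, an OAS-like protein, read 9.02, 10.07 and 9.75 in DKO, against 9.26, 9.77 and 9.32 in ApoE-KO, where again the lowest and the highest array were DKO. Its difference was 0.17 (interval -0.47 to 0.80), and it was 0.46 without DKO replicate 1. Oasl1, which in mice restrains translation of Irf7, had a difference of -0.04.

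None of the 4 GTPase genes passed. Mx1 and Mx2 encode dynamin-like antiviral GTPases, for which C57BL/6 mice are known to carry defective alleles. Mx1 was the only gene lower in DKO at all 3 replicate numbers, at 6.14, 6.54 and 6.26 in DKO, against 6.34, 6.56 and 6.40 in ApoE-KO, with overlapping groups and a difference of -0.12 (interval -0.40 to 0.16). With renewed quantile normalization 0 genes were lower at all 3 numbers. Mx2 had a difference of 0.06. Gbp5, a guanylate-binding protein that acts on the membranes of pathogens, read 7.54, 7.73 and 7.56 in DKO, against 7.43, 7.70 and 7.42 in ApoE-KO, and was 0.09 higher in DKO (interval -0.15 to 0.34). Gbp3 had -0.06. Members of this family are close copies of each other, so their probe sets may share signal.

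The 2 measured genes of the ISG15 cycle were higher in DKO on average and did not pass. Usp18, which strips ISG15 from proteins and blocks the interferon receptor, read 8.66, 8.90 and 8.80 in DKO, against 8.87, 8.57 and 8.58 in ApoE-KO. Its difference was 0.12 (interval -0.15 to 0.39), from -0.21 at replicate number 1 and 0.34 and 0.22 at the others. Herc6, the ligase that attaches ISG15 in mice, read 8.35, 8.59 and 8.62 in DKO, against 8.33, 8.46 and 8.36 in ApoE-KO. It was higher in DKO in each pair, the groups overlapped, and the difference was 0.14 (interval -0.10 to 0.37).

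Rsad2 had the largest difference and the widest range of all 30. It encodes viperin, an enzyme that makes a chain-terminating nucleotide against viral polymerases. Its level was 7.96, 8.70 and 9.08 in DKO, against 7.69, 8.07 and 8.07 in ApoE-KO. DKO replicates 2 and 3 lay above every ApoE-KO array, and DKO replicate 1 lay between ApoE-KO replicate 1 and the other 2. The mean was 8.58 ± 0.57 in DKO and 7.94 ± 0.22 in ApoE-KO (SD, n = 3 each), a difference of 0.63 (interval -0.0085 to 1.28) or 1.55-fold. It did not pass without the block (limma, adjusted p = 0.862), nor with it (adjusted p = 0.105), although the replicate numbers gave 0.27, 0.63 and 1.002. The value moved to 0.94 without DKO replicate 1 and to 0.38 without DKO replicate 3. Without both arrays of replicate number 1 and with the block it was 0.82 and passed (limma, adjusted p = 0.0140), on 2 arrays per genotype and beside 415 of all probe sets, and without the block it did not pass there (adjusted p = 0.330). Without both arrays of number 3, which carried the lung genes, it was 0.45 and did not pass with the block (adjusted p = 0.184). The 250 bases before the Rsad2 start are shown because the gene leads the list, with its 1 ISRE core in capitals, 120 bases before the transcript start.
Rsad2 (chr12:26456453-26456702, minus strand): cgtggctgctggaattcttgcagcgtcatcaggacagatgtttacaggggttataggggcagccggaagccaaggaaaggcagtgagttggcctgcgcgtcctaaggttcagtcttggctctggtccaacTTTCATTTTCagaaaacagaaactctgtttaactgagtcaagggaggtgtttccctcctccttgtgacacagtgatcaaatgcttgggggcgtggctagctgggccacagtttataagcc

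Cmpk2, a mitochondrial nucleotide kinase whose gene neighbours Rsad2 on chromosome 12, did not share its size. It read 8.27, 8.49 and 8.18 in DKO, against 8.27, 8.18 and 8.04 in ApoE-KO, a difference of 0.15 (interval -0.10 to 0.40), with the pair of number 1 almost equal. Trim30a, which restrains inflammatory signalling from Toll-like receptors, read 9.20, 10.02 and 9.82 in DKO, against 9.38, 9.64 and 9.47 in ApoE-KO. DKO replicates 2 and 3 were the highest and DKO replicate 1 the lowest of the 6. Its difference was 0.18 (interval -0.30 to 0.66) and became 0.42 without DKO replicate 1.

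The remaining effectors had small differences. Bst2, the membrane tether of budding virus, had a difference of 0.07, Rtp4, a chaperone of G protein-coupled receptors, 0.05, and Ifi35, a partner of NMI, 0.05. Xaf1, an antagonist of the apoptosis inhibitor XIAP, had 0.03, and Parp14, an ADP-ribosyltransferase, -0.0064. Xaf1 nonetheless ranged over 0.62 units, low in both arrays of replicate number 1 at 7.70 in DKO and 7.70 in ApoE-KO and at least 8.21 in the other 4.

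**Figure D2:**
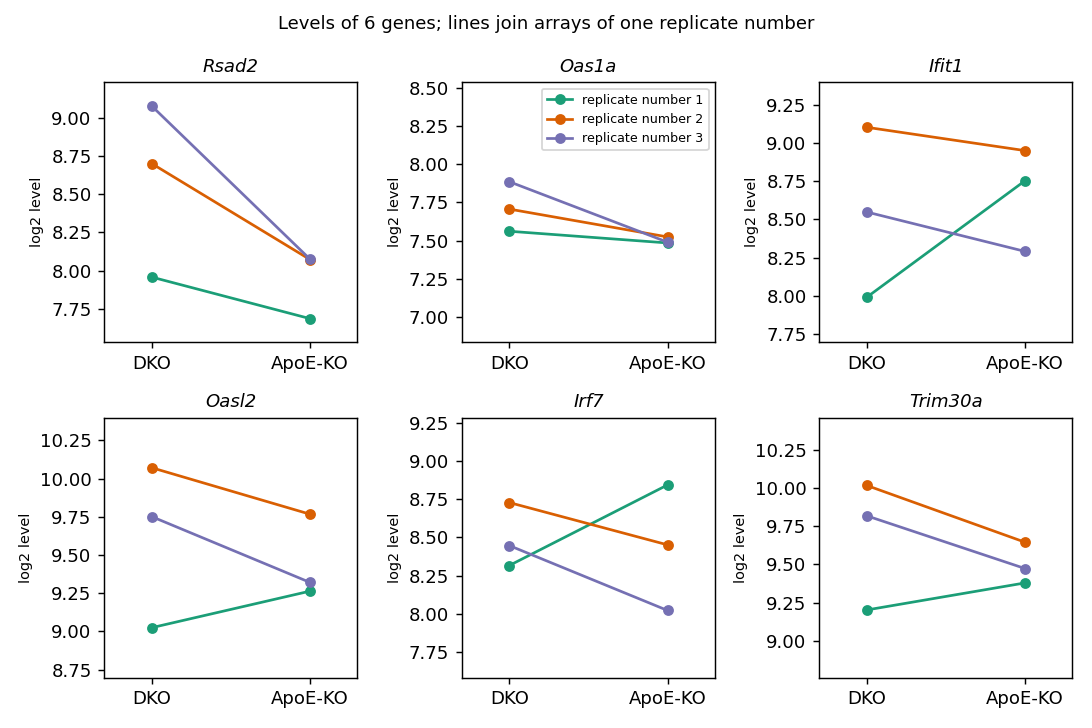
Levels (log2, vertical axes of equal span) of Rsad2, Oas1a, Ifit1, Oasl2, Irf7 and Trim30a in DKO and ApoE-KO, with lines joining arrays of one replicate number. Rsad2 and Oas1a are higher in DKO in every pair, while in Ifit1, Oasl2, Irf7 and Trim30a the line of replicate number 1 runs against the other 2.

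Levels of many of the genes were high or low in the same arrays. DKO replicate 2 held the highest level of 17 of the 30 genes, against 11.6% of all probe sets, and DKO replicate 1 the lowest level of 15, against 19% of all probe sets. No gene was highest in DKO replicate 1, where 24.2% of all probe sets were, and none was lowest in DKO replicate 2, where 13.9% were. Their mean level was 8.20, 8.62 and 8.46 in DKO, against 8.34, 8.46 and 8.29 in ApoE-KO, so the DKO arrays spanned the ApoE-KO arrays on both sides. The mean of all probe sets lay between 8.05 and 8.07 in every array.

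At replicate number 1, 22 of the 30 genes were lower in DKO, against 50.1% of all probe sets. At number 2, 25 were higher (47.6% of all probe sets), and at number 3, 26 were higher (54.4%). The combination of lower at number 1 and higher at numbers 2 and 3 was found in 16 genes, where 11% of all probe sets had it, and these included Irf7, Stat2, Zbp1, Ifit1, Ifit3, Oasl1, Oasl2, Usp18, Cmpk2, Bst2 and Trim30a. Higher in DKO at all 3 numbers were 7 genes (21.2% of all probe sets), Irf9, Ddx58, Oas1a, Oas3, Gbp5, Herc6 and Rsad2. With renewed quantile normalization or median centring the first count was 14 or 15 and the second 8 under either. The mean difference over the 30 genes was -0.14, 0.15 and 0.17 by replicate number, or 0.06 ± 0.17 (SD over 3 pairs), and carries no test because the genes were chosen with results of these data known.

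**Figure D3:**
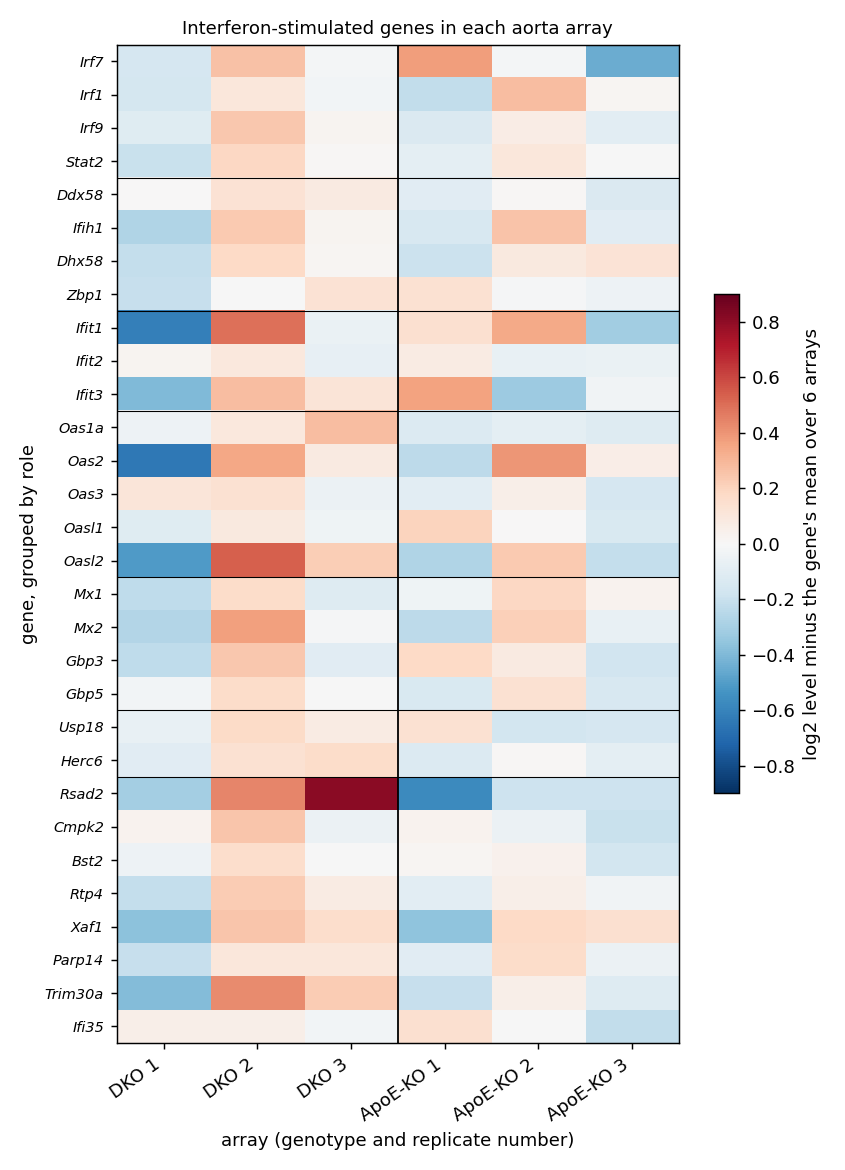
Each row is 1 of the 30 genes, grouped by role with lines between groups, and each column 1 array, DKO left of the vertical line and ApoE-KO right of it. Colour gives the log2 level minus the gene's mean over the 6 arrays, and DKO replicate 1 is blue in most rows and DKO replicate 2 red in most rows.

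Markers of macrophages were high and low in the same arrays. Of 9 measured macrophage markers 8 were lowest in DKO replicate 1 and 8 highest in DKO replicate 2, and their mean ran over 9.62, 10.69 and 10.33 in DKO, against 10.19, 10.33 and 10.13 in ApoE-KO. By replicate number the macrophage mean differed by -0.57, 0.36 and 0.20. The 9 T and NK cell markers averaged from 6.36 to 6.63 in DKO and from 6.58 to 6.61 in ApoE-KO, with 6 of 9 lowest in DKO replicate 1. The 4 measured plasmacytoid dendritic cell markers, of the cell type known for the strongest type I interferon secretion, averaged from 8.02 to 8.18 in DKO and from 7.91 to 8.29 in ApoE-KO, with 0 of them highest in DKO replicate 2. Of these markers Tcf4 read at least 10.63 in every array, while Siglech, Ccr9 and Pacsin1 lay below the array medians of 8.009 to 8.025. Whether Siglech, Ccr9 and Pacsin1 were above background is unknown. The 9 monocyte and neutrophil markers averaged from 6.36 to 6.72 in DKO and from 6.59 to 6.73 in ApoE-KO, and the 5 B cell markers from 6.71 to 7.15 in DKO and from 6.60 to 7.13 in ApoE-KO. The part of any of these cells in the levels of interferon-stimulated genes was not tested.

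The mean of the white adipocyte markers was lower and that of the mesothelium markers higher in DKO at each replicate number. The 7 adipocyte markers averaged 9.36, 10.20 and 9.75 in DKO, against 9.96, 10.67 and 10.33 in ApoE-KO, and the 6 mesothelium markers 8.08, 8.57 and 8.31 in DKO, against 7.43, 7.38 and 7.80 in ApoE-KO. With the block 3 of 7 adipocyte and 2 of 6 mesothelium markers passed (0.174% of all probe sets), and 0 of either without it (0% of all probe sets). Lep, the leptin gene, went the other way from the other 6 adipocyte markers, with 0.18, 0.56 and 0.33 by replicate number, and Krt19, a keratin gene of the mesothelium list, was lower in DKO at number 3 (-0.28). Of the 30 interferon-stimulated genes 7 were higher in DKO at each replicate number, Rsad2 and Oas1a among them, against 21.2% of all probe sets. The part of mesothelium or fat in the values of these 7 genes was not tested.

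**Figure D4:**
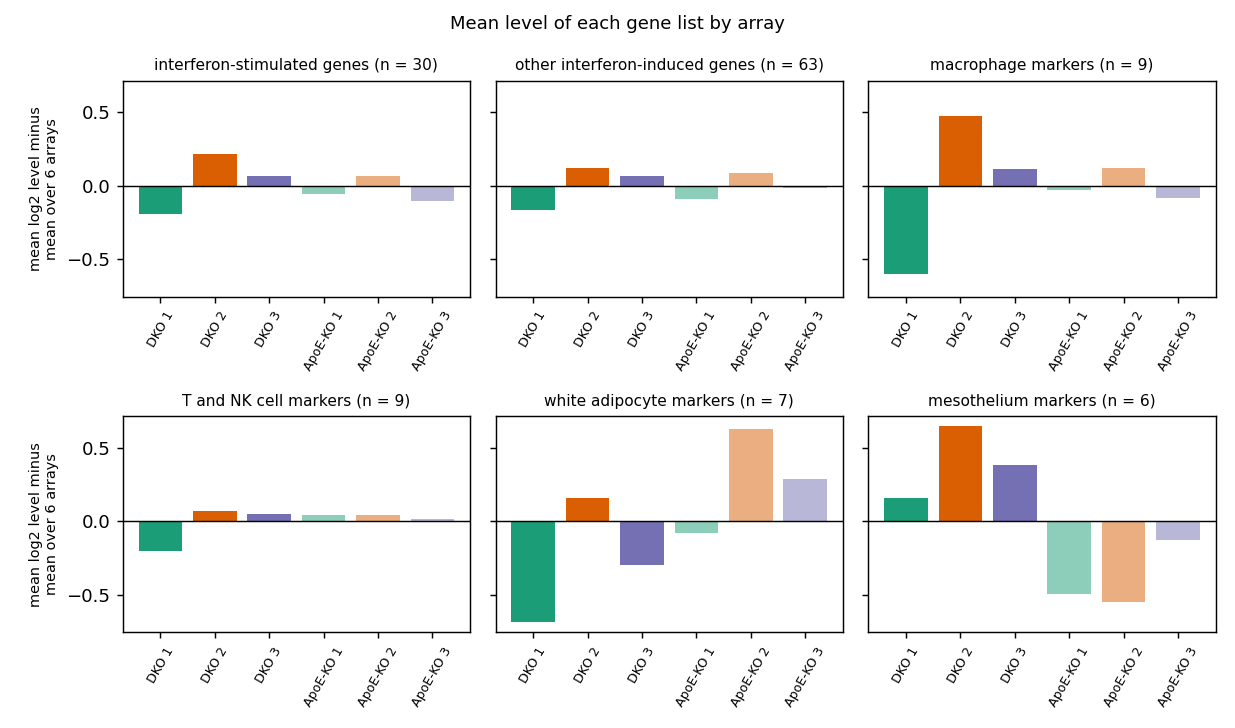
Mean log2 level of 6 gene lists in each array minus the list's mean over the 6 arrays (vertical axis, log2 units), DKO arrays in full colour at the left and ApoE-KO arrays paler at the right. The interferon-stimulated genes, the other interferon-induced genes and the macrophage markers are lowest in DKO replicate 1 and highest in DKO replicate 2, while at each replicate number the adipocyte bar is lower and the mesothelium bar higher in DKO.

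Further genes of the pathway were taken from lists written by name. None passed in either fit, and each list is given by its counts and median beside the median of -0.0024 over all probe sets. The 15 measured genes of type I and III interferons stood at a median difference of -0.03 (6 higher, 9 lower in DKO), and their mean lay between 6.52 and 6.54 in DKO and between 6.52 and 6.58 in ApoE-KO. Of these 15 genes 1 had an unadjusted p under 0.05 without the block (5.62% of all probe sets) and 2 with it (16.2% of all probe sets). Ifnb1, the interferon beta gene, read 5.34, 5.41 and 5.07 in DKO, against 5.75, 5.50 and 5.40 in ApoE-KO, lower in each pair (difference -0.28, interval -0.58 to 0.02). Ifna13, an interferon alpha gene, was 0.21 higher in DKO, and Ifng, the interferon gamma gene of lymphocytes, had -0.09. Levels of Ifnb1, Ifna13 and Ifng lay below the array medians of 8.009 to 8.025, and whether they were above background is unknown. Interferon genes are close copies of each other, so their probe sets may share signal.

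The 6 interferon receptor genes were all higher in DKO by small amounts, from 0.02 to 0.08, led by Il10rb (0.08) and Ifnar1 (0.08). Among 9 measured kinases, STAT genes and further interferon regulatory factors, Irf4 stood out. Irf4, a factor of lymphocytes and of alternatively activated macrophages, read 6.91, 7.04 and 6.99 in DKO, against 7.27, 7.41 and 7.38 in ApoE-KO. Every DKO array lay below every ApoE-KO array and the pairs were nearly equal, at -0.36, -0.37 and -0.39. The difference of -0.37 (interval -0.55 to -0.20) passed neither without nor with the block (limma, adjusted p = 0.596 and 0.0866). Irf5 had -0.13, Jak2 0.16 and Tyk2 0.09. Of the 9 genes 1 had an unadjusted p under 0.05 without the block (5.62% of all probe sets) and 2 with it (16.2%).

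The brakes on the pathway split in direction. Ptpn2, a phosphatase that switches off JAK and STAT proteins, read 8.95, 8.75 and 8.62 in DKO, against 8.54, 8.22 and 8.20 in ApoE-KO, with no overlap and a difference of 0.45 (interval 0.15 to 0.76). Socs3, a feedback inhibitor of cytokine receptors, read 8.43, 8.43 and 8.34 in DKO, against 8.86, 9.18 and 8.54 in ApoE-KO, again with no overlap and a difference of -0.46 (interval -0.83 to -0.09). Neither passed without the block (limma, adjusted p = 0.861 for both) or with it (adjusted p = 0.0547 for Ptpn2 and 0.129 for Socs3). Over the 16 genes of this list 7 were higher and 9 lower in DKO, with a median of -0.0078. An unadjusted p under 0.05 was found for 2 without the block (5.62% of all probe sets) and for 5 with it (16.2%).

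The 14 measured genes of nucleic acid sensing had a median of 0.04 (11 higher, 3 lower in DKO), led by Eif2ak2, the RNA-activated kinase PKR. Eif2ak2 read 8.47, 8.41 and 8.23 in DKO, against 8.22, 8.19 and 8.12 in ApoE-KO (difference 0.19, interval -0.01 to 0.40, no overlap). It was also the 1 gene of the 14 with an unadjusted p under 0.05 with the block, against 0 without it. The shares over all probe sets were 16.2% with the block and 5.62% without it. Of 63 other interferon-induced genes 35 were higher and 28 lower in DKO (median 0.02). An unadjusted p under 0.05 was found for 5 of the 63 without the block (5.62% of all probe sets) and for 13 with it (16.2% of all probe sets), 10 of them higher and 3 lower in DKO. Sp140, a nuclear body protein that restrains type I interferon in mice, read 8.19, 8.16 and 8.19 in DKO, against 7.92, 7.91 and 7.74 in ApoE-KO, a difference of 0.32 (interval 0.13 to 0.51) without overlap. Phf11d, a PHD finger protein, was 0.31 higher and Samd9l, a restrainer of translation, 0.25 higher, both without overlap. Ifi205, a PYHIN family gene, was lower at 6.56, 7.99 and 7.85 in DKO, against 8.27, 8.67 and 8.33 in ApoE-KO, with no overlap and DKO replicate 1 far below the rest (difference -0.96, interval -1.80 to -0.11).

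Of 7 measured GTPase genes that interferon gamma induces, 5 were higher in DKO (median 0.22), including Gbp4 (0.26), Gbp8 (0.23), Gbp9 (0.22) and Iigp1 (0.27), a GTPase that attacks parasite vacuoles. Among these 7 genes 0 had an unadjusted p under 0.05 without the block (5.62% of all probe sets) and 3 with it (16.2% of all probe sets). Over 20 genes of antigen presentation and chemokines the median was 0.01 (11 higher, 9 lower in DKO). An unadjusted p under 0.05 was found for 1 without the block (5.62% of all probe sets) and for 2 with it (16.2%). H2-Q4, a non-classical class I gene, read 9.33, 9.69 and 9.54 in DKO, against 9.14, 9.20 and 9.16 in ApoE-KO, with no overlap and a difference of 0.35 (interval 0.10 to 0.60, adjusted p = 0.861 without and 0.113 with the block, limma). The chemokine genes Cxcl9 and Cxcl11 had 0.13 and -0.08, and Cd274, the checkpoint ligand PD-L1, 0.22.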

How the data were processed

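RNA of 6 mouse aortas was amplified with a whole-transcript kit and hybridised to 1 array each, per the labels' protocols. The authors deposited 1 table of log2 intensities for 25254 probe sets, and the submitters' processing notes name RMA, Partek and the build mm9 without versions. The series text names array batch as a factor of the authors' own tests, no label says which arrays shared one, and no source used here states whether the deposited values had it removed. Medians ran from 8.009 to 8.025. No array was left out, no filter was applied, and the number of arrays limits the precision: with 3 arrays per genotype the smallest p an exact permutation test allows is 0.1.

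The platform annotation names 1 gene for 21496 probe sets, several for 1565 and none for 2193, and 0 symbols changed when looked up in RefSeq by Entrez identifier. All probe sets were fitted with limma 3.58.1 in R 4.3.3 (lmFit, eBayes with intensity trend), DKO minus ApoE-KO, two-sided, with Benjamini-Hochberg adjustment over all of them and a threshold of 0.05. The fit was tested on simulated data. Same-numbered arrays deviated together from their group means (correlations 0.60, 0.50 and 0.64 over probe sets, all over 0.1), so counts with the replicate block stand beside those without it where they differ. Pairing rests on these correlations, as the labels do not state the meaning of the numbers.

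Genes given with all 6 values are the 10 with the smallest unadjusted p, the 6 with the widest range and the transcription factors; of each further list up to 4 by smallest p. The gene list, the further lists and the rule were chosen with earlier results of these data known. Alternatives were the block, eBayes without the trend, robust eBayes, unmoderated models, array weights, quantile normalization, median centring, a filter at the 40th percentile, probe sets naming 1 gene, means over a gene's probe sets, genes above the median level, and arrays or pairs left out. The series text counts 3 mice per genotype.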

Additional observations from a re-analysis of the deposited data

How the results depend on the processing

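Under every alternative with all 6 arrays 0 of the 30 genes passed after adjustment, and with arrays or pairs left out 0 to 1 did, the 1 being Rsad2. The replicate block raised genes with an unadjusted p under 0.05 to 3, where the share of all probe sets rose from 5.62% to 16.2%. All probe sets passing rose to 44 with the block. The unmoderated model with the block gave 1 gene with an unadjusted p under 0.05, array weights 2, renewed quantile normalization 1 and probe sets naming 1 gene 1. The shares of all probe sets under these settings are not given, so these counts are not read as a result about the genes. The unmoderated model without the block passed 1 probe set. After adjustment the block changed the call of no interferon-stimulated gene over all 6 arrays; without both arrays of replicate number 1, Rsad2 passed with the block only. Array weights gave replicate 1 a weight of 0.52 in DKO and 0.50 in ApoE-KO, and replicate 2 one of 2.20 in DKO and 1.55 in ApoE-KO. With these weights 3 genes were lower in DKO and 9 turned higher (Stat2 0.040, Ifih1 0.020, Dhx58 0.028, Zbp1 0.0097, Ifit1 0.058, Ifit3 0.26, Oasl1 0.024, Gbp3 0.049, Parp14 0.0052). Quantile normalization turned Dhx58 to 0.034. The filter on low values removed 4 of the genes. Groups did not overlap in 2 genes after median centring, and in 0 among the 23 genes above the median level. With the deposited values it was 1 of the 30 genes, against 12% of all probe sets. The shares after median centring and above the median level are not given, so these counts are not read as a result about the genes. Leaving out arrays or pairs gave 2 to 18 genes lower in DKO, 0 to 11 at an unadjusted p under 0.05, 1 to 9 without overlap and 0 to 415 of all probe sets passing. Groups of fewer arrays part more easily, and the shares of all probe sets for the 2 middle counts are not given. Those counts are therefore not read as a result about the genes. Directions turned in 18 genes, which ran over Irf1 -0.17 to 0.076, Stat2 -0.098 to 0.094, Ifih1 -0.13 to 0.13, Dhx58 -0.11 to 0.095, Zbp1 -0.17 to 0.092, Ifit1 -0.40 to 0.21, Ifit3 -0.31 to 0.38, Oas2 -0.35 to 0.14, Gbp3 -0.19 to 0.12, Parp14 -0.087 to 0.096, Irf7 -0.15 to 0.35, Ifit2 -0.031 to 0.080, Oasl2 -0.062 to 0.46, Mx2 -0.11 to 0.21, Rtp4 -0.045 to 0.18, Xaf1 -0.15 to 0.22, Oasl1 -0.12 to 0.089 and Ifi35 -0.047 to 0.14. The other 12, with Rsad2, Oas1a, Ddx58, Herc6, Oas3 and Mx1 among them, kept their sign when arrays or pairs were left out. The cause of these shifts was not tested. No detection calls are used here, so whether dim probe sets were above background is unknown.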
